A study of Arabidopsis thaliana with 24 samples.

Results

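In Arabidopsis roots, 172 of the 22746 probe sets on the array gave a higher signal without inorganic phosphate (Pi) at both 6 h and 24 h after the transfer of the plants. They were chosen on the difference between the array without Pi and the array with Pi of the same experiment, on a log2 scale on which 1 unit is a doubling. The mean difference over the 3 experiments had to be at least 0.8 at 6 h and again at 24 h, and each of the 6 single differences had to exceed 0.2. Those differences therefore describe how the members were picked; they are given below as values without a test. The arrays of 0 h and 1 h had no part in the choice, and the members are tested only for differences between groups of those times. The spread behind these tests was estimated from all 24 arrays, those of 6 and 24 h included, so the tests are not fully independent of the choice. For genes that are not members, calls at 6 and 24 h are also given; the rule sorted genes on the same values, so these calls describe what it left and support nothing about the members. A single gene was named by 118 of the 172 probe sets and several genes by 2; the other 52 have no gene name here and are given by their probe set ID. The same criteria were met by 723 probe sets at 6 h and by 396 at 24 h, so that 551 met them at 6 h and not at 24 h and 224 at 24 h and not at 6 h. A mean difference of at least 0.8 alone was reached by 3.89% of all probe sets at 6 h and by 2.17% at 24 h.

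Phosphate is taken up by roots as the free anion and is needed for nucleic acids, phospholipids and ATP. When its supply ends, plants express genes for uptake and for internal release of phosphate through the MYB-type regulator PHR1, which SPX proteins hold inactive while phosphate, sensed through inositol pyrophosphates, is plentiful. Starved roots are also known for changed growth, for exchange of membrane phospholipids for other lipids, and for genes shared with senescence, sugar shortage, jasmonate and wounding.

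RNA came from whole roots of Arabidopsis thaliana (no accession or mutant is named in the labels), grown in aerated nutrient solution with 1.5 mM Pi for 30 days under 10 h of light and 14 h of dark. All plants, controls included, were rinsed in 0.1 mM EDTA 1 h into the light and moved either to solution without Pi or to fresh solution with 1.5 mM Pi. Roots of about 20 plants were harvested at 0, 1, 6 and 24 h in experiments numbered 1 to 3, which gave 24 one-colour arrays in 8 groups of 3. A group at 1 h or later therefore differs from 0 h by the time since the rinse and transfer, in both supplies. Groups at 1 h and 6 h also differ from 0 h by the time of day, which at 24 h is again that of 0 h.

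On the log2 scale, the median of an array was between 6.34 and 6.45. No pair of arrays held identical values, and arrays of one group correlated with r between 0.9503 and 0.992 across probe sets. By the numbers in the array file names in the labels, 3 arrays, all of experiment 2 (1 h with Pi, 6 h without and 24 h without), were numbered out of run, and 2 arrays of experiment 3 (1 h and 6 h without Pi) carry a mark read here as a second scan. The labels do not say what these numbers and marks mean. Of the 5 measured genes of shoot photosynthesis, 0 were called at 1, 6 or 24 h by limma, or 1 lower at 6 h with the experiment as a block, and their mean level lay between 5.21 and 6.85 on the 24 arrays. At 6 h that mean level was uneven with Pi, at 5.41 to 6.85, beside 5.67 to 5.90 without Pi. Root identity was checked with the 6 measured genes of root hairs, whose mean level lay between 6.69 and 8.89. In whole roots, fewer cells of a type and less RNA per cell cannot be told apart.

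The members' median difference between supplies was near 0 at 0 h, small at 1 h and largest at 6 h. The median difference over the 172 members, without Pi less with Pi, was -0.09 at 0 h and 0.33 at 1 h, beside -0.004 over all probe sets at both times. At the times used by the rule it was 1.52 at 6 h (2.86-fold) and 1.24 at 24 h (2.37-fold). The 3 experiments gave members' medians of -0.02, -0.23 and 0.01 at 0 h, of 0.26, 0.70 and 0.11 at 1 h, of 1.50, 1.76 and 1.36 at 6 h, and of 1.23, 1.47 and 1.01 at 24 h. Experiment 2 had the highest value at 1, 6 and 24 h and the lowest at 0 h. At 0 h the median was 0.009 without experiment 2, and at 1 h it was 0.175 without it, so the sign at 0 h rests on that experiment. The differences at 6 h ranged from 0.80 to 4.46 with quartiles of 1.12 and 2.02, and those at 24 h from 0.80 to 3.17 with quartiles of 0.99 and 1.59.

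**Figure D1:**
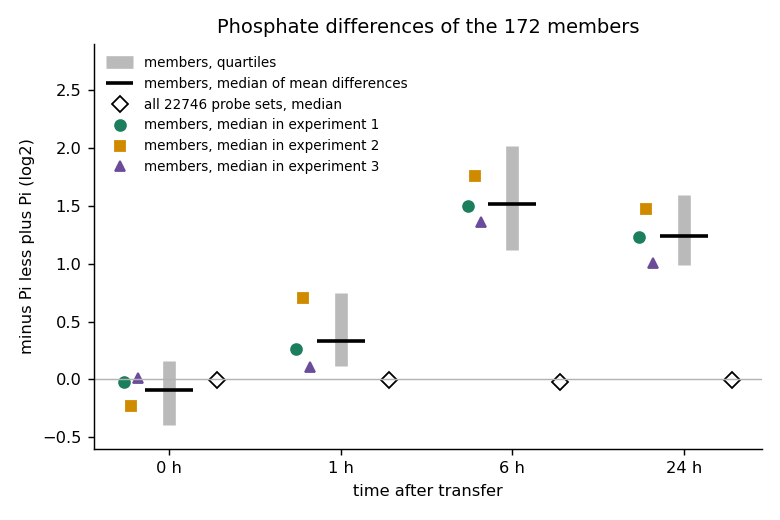
Log2 difference without Pi less with Pi of the 172 members at 0, 1, 6 and 24 h after transfer (times evenly spaced). Grey bars span the quartiles of the members' mean differences, black lines are their medians, coloured points the members' median in each experiment, and diamonds the median of all 22746 probe sets. The members' median goes from -0.09 at 0 h to 0.33, 1.52 and 1.24, while that of all probe sets stays near 0; the values at 6 and 24 h follow from how the members were chosen.

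Members closest to the limits had small differences. Inside it stood 262137_at (mean difference 0.943 at 6 h and 0.80 at 24 h), iqd15, a calmodulin-binding IQ-domain gene (0.80 and 0.907), and AT1G28260 (0.893 and 0.801). Just outside it stood PAP27, a purple acid phosphatase (0.796 and 0.83), AT5G24600 (1.368 and 0.795) and 263419_at (0.794 and 0.814). By the limit on single differences, AT1G55790 was kept with a smallest value of 0.203 and 256522_at was left out with 0.191.

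Known phosphate-response genes were 3 of the members, and for SPX1 and G3Pp1 the difference was larger at 24 h than at 6 h. SPX1 encodes the nuclear SPX protein that holds PHR1 in check when phosphate is plentiful. Without Pi its level was 8.31, 7.94 and 7.93 in experiments 1 to 3 at 6 h and 10.14, 9.90 and 10.02 at 24 h. With Pi it was 7.0, 6.41 and 5.89 at 6 h and 7.03, 6.87 and 6.66 at 24 h. The groups did not overlap at either time, and the difference was 1.63 ± 0.372 (SD, n = 3) at 6 h and 3.17 ± 0.176 at 24 h, the latter 8.98-fold. At 1 h SPX1 was 5.98, 5.63 and 7.06 without Pi and 5.72, 5.82 and 6.50 with Pi, groups that overlapped, with a difference of 0.22 (SE 0.357, limma adjusted p = 0.954).

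G3Pp1, a glycerol-3-phosphate permease of the phosphate starvation response, differed far more between experiments. Its level without Pi was 5.83, 8.37 and 8.18 at 6 h and 10.08, 10.63 and 10.56 at 24 h, against 5.01, 6.91 and 7.28 and then 7.76, 8.48 and 8.72 with Pi. The 6 h groups overlapped because experiment 1 was low in both, and the 24 h groups did not. Its difference was 1.06 ± 0.350 at 6 h and 2.1 ± 0.245 (SD, n = 3) at 24 h. In both supplies the 6 h mean lay below the 0 h mean, by 0.76 without Pi and by 2.35 with Pi on the log2 scale, while at 24 h only the roots without Pi stood above it, by 2.20. WRKY75, a transcription factor with a role in phosphate acquisition and root growth, went the other way, with 1.98 ± 0.834 at 6 h and 1.46 ± 0.500 at 24 h. Its level without Pi was 9.04, 9.14 and 8.60 at 6 h, above 6.88, 6.43 and 7.54 with Pi, and at 24 h it was 6.13, 5.85 and 7.24 against 4.13, 4.49 and 6.23, which overlapped.

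Most other measured genes of the phosphate pathway were not members. On every list, a gene counts as measured only if a probe set names it alone. That held for 16 of 30 listed genes of phosphate sensing and transport, 4 of 13 of scavenging and 6 of 15 of membrane lipid exchange. Whether the remaining listed genes are among the unnamed members cannot be told here. Of 16 measured genes of phosphate sensing and transport 3 were members, and of the other 13 a limma adjusted p under 0.05 was reached at 6 h by 4, all higher without Pi, beside 3.97% of all probe sets called higher and 5.69% lower. With the experiment as a block 6 were higher and 0 lower, beside 9.34% and 13.2%. Among the 4 was LPR1, a ferroxidase of local phosphate sensing, with 1.33 (SE 0.18, adjusted p = 0.000207), and its 24 h value was 0.72 (adjusted p = 0.111, or 0.0175 with the block). At 24 h 1 of the 13 was higher and 0 lower, beside 0.224% and 0.0967% of all probe sets, and with the block 3 were higher and 1 lower, beside 1.71% and 2.29%. The 1 was OCT1, an organic cation transporter gene, with 4.18 at 24 h (SE 0.537, adjusted p = 0.000751) and 0.47 at 6 h (adjusted p = 0.713), so that it fell outside the rule at 6 h. None of the 4 measured genes of phosphate scavenging (acid phosphatases and an RNase) was a member, and 0 were called at 6 or 24 h, or 1 higher at 24 h with the block. None of the 6 of membrane lipid exchange was a member either, and 2 were called higher at 6 h and 1 at 24 h, with or without the block. At 6 h these were MGD1, a synthase of galactolipid, with 0.43 (adjusted p = 0.0364), and PAH2, a phosphatidate phosphatase, with 0.54 (adjusted p = 0.0405). SQD1, which makes the sulfolipid head group, stood at 0.19 at 6 h and 0.94 at 24 h (adjusted p = 0.000751).

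Sugar shortage and senescence genes gave the most members of any pathway list, 6 of 18 measured, but that list also had the most measured genes. The touch and wall list gave 4 of 12 and the jasmonate list 2 of 7. ASN1, the asparagine synthetase switched on in the dark and under sugar shortage, had levels without Pi of 12.55, 11.32 and 10.63 at 6 h and 9.67, 9.63 and 10.29 at 24 h. With Pi they were 9.70, 7.81 and 6.67 at 6 h and 6.67, 7.67 and 7.91 at 24 h. Experiment 1 was highest in both supplies at 6 h, yet the groups did not overlap, and the differences were 3.44 ± 0.556 (10.8-fold) and 2.45 ± 0.520. PPDK, pyruvate orthophosphate dikinase, gave 3.43 ± 1.02 and 1.67 ± 0.338, from 10.72, 9.91 and 9.52 without Pi and 8.41, 5.60 and 5.84 with Pi at 6 h. For PPDK the groups were apart at 6 h, and at 24 h they overlapped, with 7.23, 7.53 and 9.32 against 5.93, 5.77 and 7.36. MSS1, the hexose transporter also called STP13, read 10.61, 10.58 and 10.02 without Pi and 7.01, 6.48 and 6.80 with Pi at 6 h, a difference of 3.65 ± 0.443 (12.5-fold), and at 24 h its difference was 2.08 ± 0.574.

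NAC6, also called ORE1 or ANAC092, is a NAC factor that promotes leaf senescence, and its differences at 6 h and 24 h were nearly equal. Without Pi it was 9.05, 8.64 and 8.81 at 6 h and 7.36, 7.66 and 8.49 at 24 h. With Pi it was 6.19, 6.43 and 6.07 and then 4.30, 5.33 and 6.00. The groups were apart at both times, with differences of 2.61 ± 0.349 and 2.62 ± 0.387 (SD, n = 3). NYC1, a chlorophyll b reductase of chlorophyll breakdown, gave 1.12 ± 0.503 and 1.55 ± 0.229.

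DIN2, a dark-inducible beta-glucosidase, had a mean difference at 0 h within the range of its later ones. Its level at 0 h was 5.77, 8.43 and 9.69 without Pi and 3.97, 6.64 and 8.34 with Pi. The ranges overlapped because the experiments were far apart, while the difference within each experiment was 1.81, 1.79 and 1.35, a mean of 1.65 (limma adjusted p = 1.0). At 6 h the differences were 0.61, 2.71 and 2.85 and at 24 h 0.39, 2.08 and 1.90, and with Pi its mean also stood above that of 0 h, by 1.74 at 6 h and 2.01 at 24 h. PPDK and ASN1 likewise had mean differences of 0.89 and 0.80 at 0 h, from -0.12 to 1.38 in single experiments. Further members of carbon use were TRE1 for trehalase, with 2.39 at 6 h and 1.32 at 24 h, and LACS7 for a peroxisomal acyl-CoA synthetase, with 1.1 and 1.33. Of the other 12 genes on the list, 5 were called higher at 6 h and 0 at 24 h, or 7 and 0 with the block, where the shares of all probe sets are those given for the phosphate genes. Being left by the rule, these 12 could not all be high at both times. The isocitrate lyase gene ICL had 4.12 at 6 h (adjusted p = 4.26e-09) and 0.38 at 24 h (adjusted p = 0.708).

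**Figure D2:**
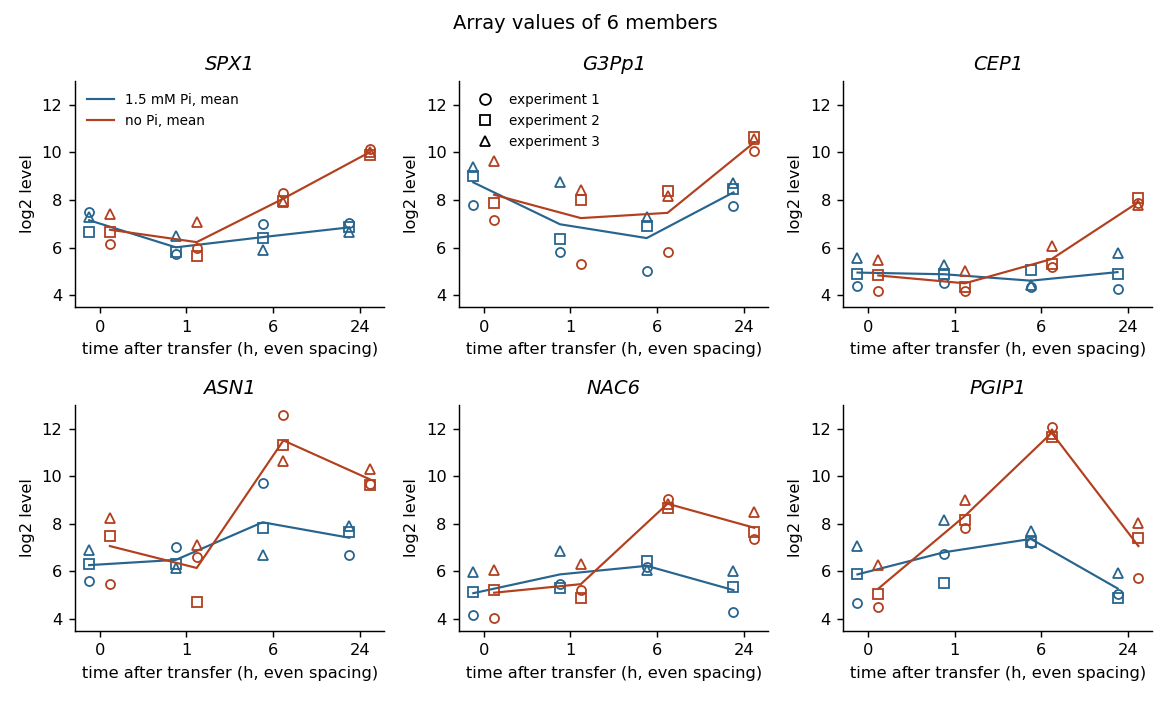
Log2 level on each array (symbols, by experiment) and group mean (lines) of 6 members at 0, 1, 6 and 24 h, evenly spaced, without Pi (red) and with 1.5 mM Pi (blue). SPX1, G3Pp1 and CEP1 are highest at 24 h without Pi, with means of 10.02, 10.42 and 7.91, and ASN1 and PGIP1 at 6 h, with means of 11.50 and 11.82.

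Cell death and protein breakdown were represented by few genes. CEP1, a cysteine endopeptidase of developmental cell death, had a ratio of the 24 h to the 6 h difference of 3.24, the highest of all members. Its level was 7.87, 8.07 and 7.80 without Pi and 4.27, 4.87 and 5.77 with Pi at 24 h, a difference of 2.94 ± 0.817. At 6 h it was 5.18, 5.32 and 6.06 against 4.36, 5.06 and 4.41, which did not overlap, a difference of 0.91 ± 0.695. The other 5 measured markers of developmental cell death were not members, and 0 of them were called at 6 or 24 h, or 1 lower at 6 h with the block. The subtilase gene SBT3.5 and the aspartic protease gene NANA gave 1.55 and 1.67 at 6 h and 0.95 and 1.50 at 24 h. Inhibitors of proteases stood beside them, the cystatin CYSA with 1.56 and 1.26 and the serine protease inhibitor UPI with 0.93 and 1.36.

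Transcription factors of several families were members, 18 in all among the named genes. Of 31 measured WRKY genes 5 were members (WRKY26, WRKY28, WRKY31, WRKY48 and WRKY75), which is 4.24% of the named members, where WRKY genes are 0.187% of the named probe sets. Of 34 NAC genes 4 were members (NAC6, NAC096, NAC102 and ANAC087), of 65 MYB genes 2 (MYB45 and MYB78), and the members also held the ethylene-response factors ERF2, Rap2.6L and CEJ1. These families were looked at because members of them had been seen in earlier results of these data, so the shares are a description. WRKY28 stood at 1.51 ± 0.301 at 6 h and 1.72 ± 0.619 at 24 h, and WRKY26, WRKY31 and WRKY48 lay between 1.31 and 1.50 at 6 h and at 1.01 at 24 h.

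MYB78 had differences that varied little between experiments, 1.73 ± 0.150 at 6 h and 1.78 ± 0.348 (SD, n = 3) at 24 h. It read 6.36, 6.33 and 6.11 without Pi and 4.77, 4.44 and 4.39 with Pi at 6 h. At 24 h it read 5.93, 6.03 and 6.48 against 4.51, 4.25 and 4.36, so all 6 arrays without Pi lay above all 6 with Pi. Rap2.6L, an AP2-type factor of wound responses, read 9.12, 9.36 and 9.17 without Pi and 7.10, 6.27 and 6.93 with Pi at 6 h, with differences of 2.45 ± 0.562 at 6 h and 2.22 ± 0.766 at 24 h. Over the 18 factors the median difference was 1.52 at 6 h and 1.04 at 24 h, against 1.52 and 1.24 over all members.

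Wall genes held the highest 6 h value. PGIP1, an inhibitor of fungal polygalacturonases, read 12.05, 11.64 and 11.78 without Pi and 7.19, 7.22 and 7.69 with Pi at 6 h, a difference of 4.46 ± 0.384 (22.0-fold). At 24 h it read 5.73, 7.41 and 8.03 against 5.05, 4.88 and 5.91, which overlapped, a difference of 1.78 ± 0.965. TCH4, a touch-induced xyloglucan endotransglucosylase also called XTH22, gave 3.89 ± 0.438 at 6 h and 0.91 ± 0.284 at 24 h. The related enzymes XTH11 and XTH24 gave 2.55 and 1.79 at 6 h and 1.3 and 1.28 at 24 h. The COBRA-like gene COBL2 gave 1.01 and 1.18.

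Among defence-type genes, LCR67, a plant defensin also called PDF1.1, varied widely between experiments. Its level without Pi at 6 h was 5.72, 7.44 and 10.19, while with Pi it was 3.54, 3.69 and 4.25. The groups were apart, and the difference of 3.96 ± 1.89 at 6 h came down to 0.95 ± 0.418 at 24 h. BCB, a blue copper protein, read 10.13, 11.57 and 11.30 without Pi and 7.41, 7.16 and 8.48 with Pi at 6 h, with differences of 3.32 ± 0.950 and 1.98 ± 0.469. The peroxidase gene AT5G39580 gave 3.61 ± 1.18 and 2.04 ± 1.25, with a level of 11.23, 10.40 and 10.12 without Pi and 6.54, 6.61 and 7.77 with Pi at 6 h. A second peroxidase, AT5G64120 or PRX71, was larger at 24 h, with 1.27 ± 0.281 and 2.07 ± 0.775. The phytosulfokine precursor gene PSK4 stood at 1.13 and 1.33, and the chitinase gene CHIA at 0.81 and 1.13. None of the 5 measured genes of the defence list was a member. At 6 h 2 of them were called higher and 0 lower, without and with the block, beside 3.97% and 9.34% of all probe sets called higher. At 24 h 0 were called.

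Hormone-linked members included a repressor and 2 enzymes of jasmonate. JAZ10 encodes a repressor of jasmonate responses that jasmonate itself induces. It read 7.14, 8.09 and 7.62 without Pi and 4.71, 4.65 and 5.18 with Pi at 6 h, and at 24 h 5.85, 5.75 and 6.03 against 4.63, 4.55 and 5.42. The groups were apart at both times, with differences of 2.77 ± 0.578 and 1.01 ± 0.350. JRG21 and AT5G05600 belong to the 2-oxoglutarate oxygenases that hydroxylate jasmonate, and they stood at 1.71 and 2.05 at 6 h and at 2.03 and 1.11 at 24 h. JRG21 read 6.05, 6.44 and 6.39 without Pi and 5.12, 4.07 and 4.58 with Pi at 6 h, groups that did not overlap. The other 5 measured jasmonate genes, left by the rule on the same values, had a median of -0.09 at 6 h and 0.05 at 24 h, and 1 of them was called with the block, at 6 h. For abscisic acid and dehydration, 2 of 15 measured genes were members, the dehydrin gene LTI30 with 1.81 and 1.13, and MYB78. LTI30 read 11.18, 10.84 and 11.13 without Pi and 9.76, 9.2 and 8.78 with Pi at 6 h. LEA4-5, for another protein of dehydrated tissue, had single differences at 6 h of 0.61, 1.49 and 3.98.

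Members linked to auxin and root growth had modest values, with a median over 7 genes of 1.28 at 6 h and 0.97 at 24 h. GH3.3, which conjugates auxin to amino acids, gave 1.53 and 1.12, and the homeobox gene HB53 gave 1.53 ± 0.690 and 1.65 ± 0.222. LBD16, a factor needed for lateral root initiation, gave 0.92 and 0.97, and AIL6, or PLETHORA 3, gave 0.99 ± 0.460 and 0.81 ± 0.186. Metal genes were HMA2, a zinc-exporting ATPase, with 1.00 ± 0.771 and 1.64 ± 0.336, and NAS2, a nicotianamine synthase, with 1.54 and 0.89. HMA2 had single differences at 0 h of 1.52, 0.31 and -1.82, so its difference at 0 h was not of one sign. None of the 7 measured genes of the iron response and none of the 11 of autophagy was a member.

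Among members with no gene name here, 266743_at had the highest mean over both times. It read 10.21, 8.45 and 8.35 without Pi and 5.06, 4.66 and 4.80 with Pi at 6 h, and 7.92, 7.90 and 7.84 against 4.73, 4.60 and 5.55 at 24 h. The difference was 4.16 ± 0.867 and 2.93 ± 0.554, while at 0 h and 1 h it was -0.05 and 0.21. The member 258158_at was larger at 24 h, with 1.1 ± 0.729 and 3.12 ± 0.361. Another unnamed member, 256319_at, gave 3.52 and 1.74. AT4G33666, of unstated function here, read 8.95, 9.07 and 8.97 without Pi and 5.77, 6.45 and 6.85 with Pi at 6 h, a difference of 2.64 ± 0.529 that was 1.25 ± 0.104 at 24 h. A probe set shared by the nitrilase genes AT3G44300 and AT3G44310 gave 1.96 ± 0.461 and 1.80 ± 0.458 and cannot be assigned to either. In 3 cases member genes lay with at most 2 protein-coding genes between them: the CASP-like genes AT4G15610 and AT4G15630, AT5G13200 and JAZ10, and AT5G39580 and NAC6.

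The shape of the difference split the members unevenly. With a margin of 0.5, 62 members had the larger difference at 6 h, 95 were within the margin and 15 had the larger difference at 24 h. The 15 had medians of 1.27 at 6 h and 2.30 at 24 h, and the 62 had 2.25 and 1.24. Their 1 h medians, which the split did not use, were 0.17 in the 15, 0.32 in the 95 and 0.41 in the 62. The phosphate-response genes SPX1 and G3Pp1 were among the 15, together with CEP1. WRKY75, the other phosphate-response member, was among the 62, with 1.98 at 6 h and 1.46 at 24 h.

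The test at 1 h, a time that the choice did not use, found 9 members higher without Pi, and 0 lower. Among all 22746 probe sets 0.708% were called higher and 0.426% lower at a limma adjusted p under 0.05. With the experiment as a block the counts were 19 higher and 1 lower, beside 1.93% and 2.04% of all probe sets. Without a threshold on p, 33 members had all 3 arrays without Pi above all 3 with Pi at 1 h, beside 6.36% of all probe sets, and 2 had them all below, beside 6.48%. A mean difference of at least 0.8 was already reached at 1 h by 40 members, beside 1.64% of all probe sets. A difference above 0 was seen for 141 of the 172, where 49.1% of all probe sets were above 0. The smallest p that 3 arrays against 3 can give by exact permutation is 0.1, and limma's calls draw on a spread estimated from all 8 groups. The labels do not say how far the 3 experiments were independent cultures, so p-values measure the spread between them. Without experiment 2 only TCH4 was called, without experiment 3 the count was 3, with only the arrays of 1 h in the fit 2 of the 9 (TCH4 and PHI-1) were called, and leaving out the out-of-run or the second-scan arrays gave 4.

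The touch-type genes had the largest differences at 1 h. TCH4 read 11.99, 11.97 and 12 without Pi and 6.82, 6.67 and 7 with Pi, a difference of 5.16 (SE 0.436, limma adjusted p = 1.23e-05), or 35.6-fold. PHI-1, an EXORDIUM-like gene also called EXL1, read 9.16, 9.38 and 9.24 against 4.58, 4.52 and 4.50, a difference of 4.73 (SE 0.538, adjusted p = 7.79e-05), or 26.5-fold. For both genes the 3 experiments lay close together and the groups were far apart. The change did not lie in one supply alone: from 0 h to 1 h TCH4 fell by 3.11 with Pi (SE 0.436, adjusted p = 0.00139), while its mean without Pi was 1.58 higher (adjusted p = 0.105, or 0.0324 with the experiment as a block). PHI-1 was 2.26 higher than at 0 h without Pi (adjusted p = 0.0504) and 2.20 lower with Pi (adjusted p = 0.119), which passed with the block at 0.00651 and 0.0188. The difference between supplies was larger at 1 h than at 0 h for TCH4 by 4.70 (SE 0.617, adjusted p = 0.00601) and for PHI-1 by 4.46 (SE 0.76, adjusted p = 0.0187). These were the only members called in that contrast without a block, with 0 lower, beside 0.0923% and 0.00879% of all probe sets. With the block 5 members were higher and 0 lower, beside 0.259% and 0.149%, and without experiment 2 or without experiment 3 the count was 0.

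At 24 h the means of both genes lay below those of 0 h in both supplies. Without Pi the mean of TCH4 was 10.40 at 0 h, 11.99 at 1 h, 10.22 at 6 h and 6.59 at 24 h. With Pi it was 9.94, 6.83, 6.33 and 5.68. Its mean without Pi at 6 and 24 h was therefore not above that of 0 h, and with Pi it was further below. PHI-1 without Pi was 7.0, 9.26, 6.26 and 5.60, against 6.73, 4.53, 4.65 and 4.37 with Pi.

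The other members called at 1 h were smaller. CML38, a calmodulin-like protein, read 8.42, 8.24 and 8.29 without Pi and 5.65, 6.44 and 6.70 with Pi, a difference of 2.06 (SE 0.402, limma adjusted p = 0.0121). The unnamed 262369_at differed by 2.42 (adjusted p = 0.00298) and AT4G24110 by 1.88 (adjusted p = 0.0145). NHL3, a membrane protein of defence responses, read 10.50, 9.78 and 10.05 against 9.03, 8.44 and 8.29, a difference of 1.52 (adjusted p = 0.0192). AT1G25400, AT2G34930 and AT3G19970 differed by 1.58, 1.38 and 0.95 (adjusted p = 0.0343, 0.0483 and 0.028). Of these AT2G34930 came closest to an overlap, with 6.53, 7.88 and 7.48 against 5.36, 5.93 and 6.45. AT3G19970 kept nearly one value, with mean differences of 0.95, 0.95 and 0.99 at 1, 6 and 24 h and -0.14 at 0 h. In these 9 members the groups at 1 h did not overlap.

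**Figure D3:**
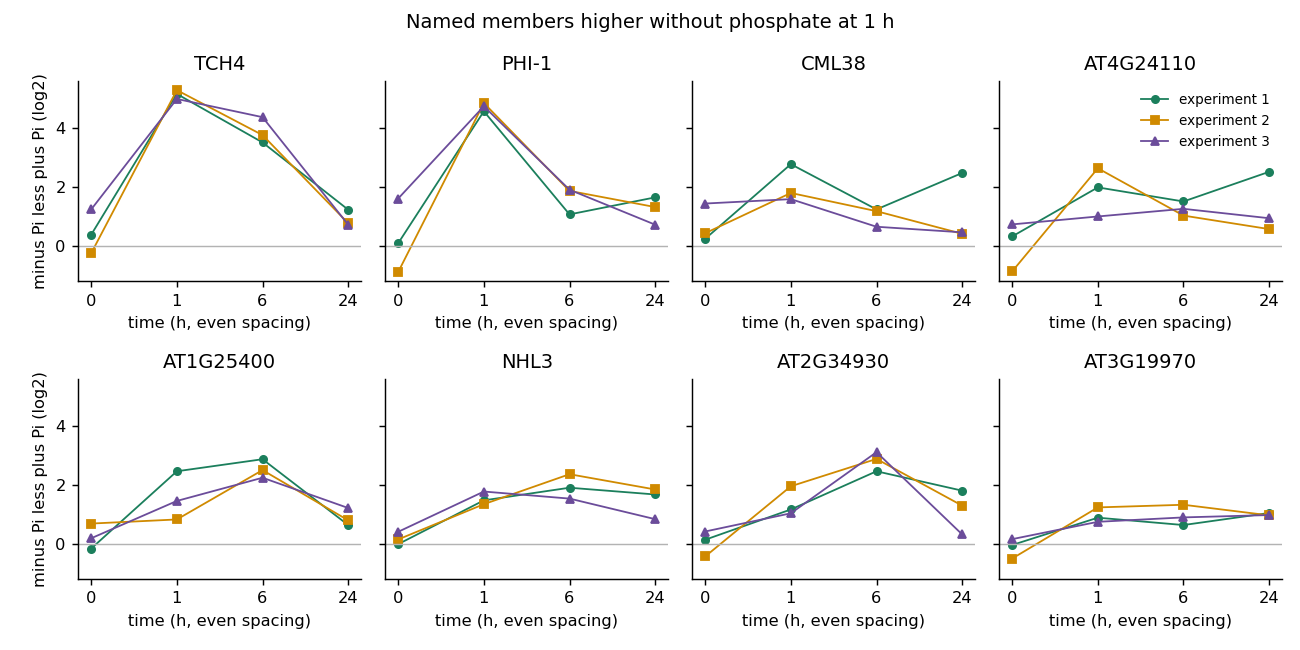
Log2 difference without Pi less with Pi in each of the 3 experiments (colours) at 0, 1, 6 and 24 h, evenly spaced, for the 8 named members called higher at 1 h. TCH4 and PHI-1 peak at 1 h, with means of 5.16 and 4.73, whereas AT1G25400, NHL3 and AT2G34930 have a larger mean at 6 h (2.53, 1.93 and 2.81) than at 1 h.

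With the experiment as a block, members of the stress regulators passed as well. NAC102 differed by 1.81 at 1 h (limma adjusted p = 0.068, or 0.0046 with the block), ERF2 by 1.52 (0.155, or 0.0281) and RHL41, the zinc finger protein ZAT12, by 1.3 (0.244, or 0.0265). BCS1, the mitochondrial outer membrane ATPase OM66, differed by 1.88 (adjusted p = 0.0711, or 0.0232), from 9.07, 8.91 and 8.74 against 7.14, 6.60 and 7.34. AT2G32190 differed by 1.84 (0.308, or 0.000224). AT5G47740 was the only member lower, by 0.79 on the log2 scale, with -0.79 (adjusted p = 0.302, or 0.0381 with the block). In AT2G32190 the single differences were 2.51, 1.80 and 1.21, while the level with Pi was 6.17, 7.64 and 8.35 in the 3 experiments.

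None of the starvation or phosphate-response members was called at 1 h. ASN1 stood at -0.34, NAC6 at -0.40, PPDK at 0.15, MSS1 at 0.40, SPX1 at 0.22, G3Pp1 at 0.26 and CEP1 at -0.38, with adjusted p between 0.878 and 0.994. Of the 8 non-member genes of the touch and wall list, 4 were called higher at 1 h, or 6 with the block, beside the 0.708% and 1.93% of all probe sets, among them EXO with 2.47 (SE 0.239, adjusted p = 1.72e-05) and WRKY18 with 2.51 (SE 0.252, adjusted p = 1.73e-05). At 24 h those stood at 0.46 and 0.30, while TCH4 and PHI-1 stood at 0.91 and 1.23.

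At 0 h no member passed the test between supplies. The counts were 0 higher and 0 lower by limma, beside 0.0% of all probe sets, and also 0 with the experiment as a block. At an unadjusted p under 0.05 there were 0 members, beside 1.32% of all probe sets. A p that misses the threshold does not show equal levels, and with Pi the spread of members between experiments at 0 h was wide, as given next.

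Members differed between the 3 experiments far more than other probe sets did. At 0 h their median SD within a group was 0.62 with Pi and 0.59 without, where all probe sets had 0.19 and 0.17. At 1 h it was 0.62 and 0.44, where all probe sets had 0.18 in both groups. Experiment 3 held the highest of the 3 arrays for 126 of 172 members at 0 h with Pi and for 140 at 0 h without Pi, beside 37.8% and 37.9% of all probe sets. The members' median level at 0 h was 5.83, 6.71 and 7.15 with Pi and 5.79, 6.28 and 7.29 without Pi in experiments 1 to 3, and the array medians over all probe sets were 6.40 to 6.44 there. At 24 h experiment 3 was again highest for 146 members with Pi and 126 without. At 6 h without Pi, in contrast, the members' medians were 8.29, 8.35 and 8.35, and experiment 3 was highest for 38 members. What differed between the experiments was not tested.

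**Figure D4:**
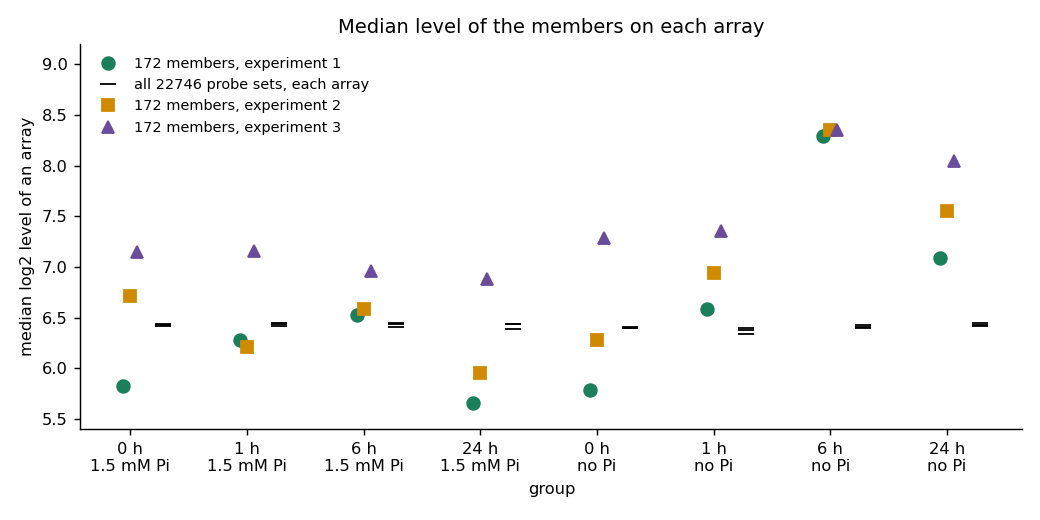
Median log2 level of the 172 members on each of the 24 arrays (coloured by experiment) and of all 22746 probe sets (black dashes), by group. The members' median spans 5.66 to 7.36 on the arrays of 0 and 1 h and on all arrays with Pi, is 8.29, 8.35 and 8.35 at 6 h without Pi, and is 7.09, 7.55 and 8.05 at 24 h without Pi.

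Changes from 0 h within each supply are given as values without a test, since the 6 and 24 h arrays chose the members. Without Pi the members' median change from 0 h was 0.42 at 1 h, 1.74 at 6 h and 1.15 at 24 h, while with Pi it was -0.10, 0.03 and -0.35. The larger move was in the roots without Pi for 148 members at 6 h and for 133 at 24 h. At 6 h 73 members stood above their 0 h mean without Pi and below it with Pi, 90 stood above it in both supplies and 9 below it in both. At 24 h these counts were 112, 39 and 21. With Pi 24 members at 6 h and 40 at 24 h stood at least 0.8 below their 0 h mean, while 24 at 6 h and 4 at 24 h stood at least 0.8 above it. In experiments 1 to 3 the median change with Pi was 0.43, -0.20 and -0.24 at 6 h and -0.02, -0.65 and -0.32 at 24 h.

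**Figure D5:**
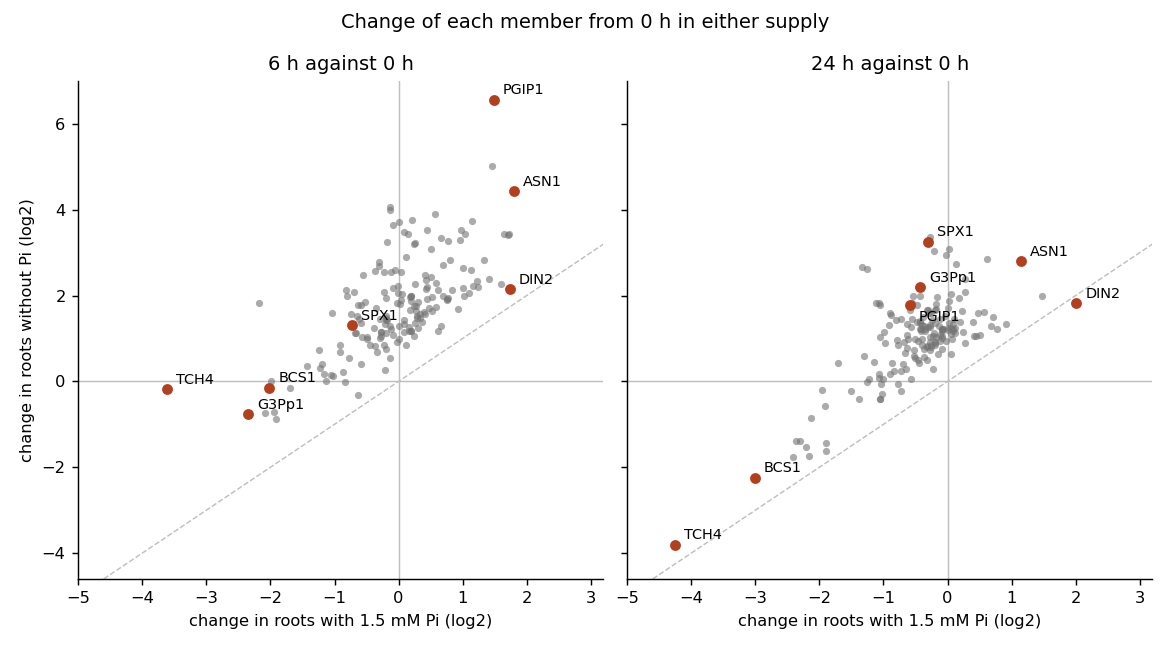
Mean log2 change from 0 h of each of the 172 members in roots with 1.5 mM Pi (horizontal) and without Pi (vertical), at 6 h (left) and 24 h (right). The dashed line marks equal change, grey lines mark no change, and 7 members are named; PGIP1 is 6.56 above its 0 h mean without Pi at 6 h, and TCH4 is below its own in both supplies at 24 h, by 3.81 and 4.26. The points near or above the dashed line follow from the choice of members.

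The members' levels took different courses. PGIP1 was 6.56 above its 0 h mean at 6 h without Pi and 1.49 above it with Pi. BGLU25, a beta-glucosidase, stayed close to its 0 h mean with Pi: the mean with Pi was 8.47, 8.72, 8.58 and 8.48 at the 4 times, and without Pi 8.35, 8.73, 11.26 and 10.08. Stress regulators lay at the other end. BCS1 without Pi was 0.15 below its 0 h mean at 6 h and with Pi 2.02 below it, and at 24 h it was 2.24 and 3.01 below. RHL41 was level with 0 h at 6 h without Pi (0.00) and 1.99 below it with Pi.

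From 0 h to 1 h without Pi, 8 members were higher by limma and 0 lower, beside 0.492% and 0.514% of all probe sets. With the experiment as a block 24 were higher and 0 lower, beside 1.63% and 2.07%. PGIP1 went from 4.51, 5.03 and 6.27 to 7.84, 8.16 and 8.99, a rise of 3.06 (SE 0.676, adjusted p = 0.0321) in which the groups did not overlap. NAC102 rose by 2.21 (adjusted p = 0.0226), AT2G34930 by 1.76 (adjusted p = 0.0119), the unnamed 260602_at by 2.47 (adjusted p = 0.00333) and AIL6 by 0.68 (adjusted p = 0.0427). With Pi over the same hour 2 members were higher and 1 lower, beside 0.0484% and 0.308% of all probe sets, and with the block 6 and 6, beside 0.211% and 0.651%. The higher ones were the unnamed 257922_at, by 2.30 (adjusted p = 0.000828), and 266974_at, by 1.21 (adjusted p = 0.00943), and the lower one was TCH4. Without Pi 257922_at was called higher as well, by 1.53 (adjusted p = 0.015). With the block JAZ10 was also higher with Pi, by 1.60 (adjusted p = 0.17, or 0.0149), as was LTI30, by 1.95 (0.11, or 0.0203). LTI30 was higher without Pi too, by 1.61 (adjusted p = 0.14, or 0.0275), so its first-hour difference had the same sign in both supplies.

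Markers of root hairs had lower means without Pi. Over the 6 measured genes, none called by limma without a block, the median difference was 0.69 at 0 h, -0.56 at 1 h, -0.85 at 6 h and -0.85 at 24 h. EXPA7 stood at -1.83, -1.35 and -1.24 at 1, 6 and 24 h (limma adjusted p = 0.29, 0.254 and 0.652, or 0.00419, 0.00701 and 0.0453 with the block). With the block 1 was lower at 1 h, 3 at 6 h and 1 at 24 h, beside 2.04%, 13.2% and 2.29% of all probe sets. The mean level of the 6 genes was 7.12 to 7.86 without Pi and 8.04 to 8.46 with Pi at 6 h. At 24 h it was 6.69 to 8.04 against 7.78 to 8.67, so the groups overlapped at 24 h. The endodermis list had medians of -0.11 and -0.10 over 5 genes and the xylem list -0.16 and -0.63 over 4, none called without a block and 1 of each list lower at 24 h with it. None of these genes was a member, and their part in the members' differences was not tested.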

How the data were processed

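Root RNA of Arabidopsis thaliana was read on 24 one-colour Affymetrix arrays, and the deposited value table holds log2 levels (2.61 to 14.17), the log2 scale being judged from the values. The sources used here do not give how probes were summarised or arrays normalized. Limma was used by the authors, per the submitters' processing notes, with no version. The authors' deposited comparison table has, per the file headers, log2 fold changes, p-values and a score from their test. It was used for gene names, and its fold changes equalled the differences of the value table within 5e-07. Columns of per-sample values left unused numbered 0.

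Of 22810 probe sets 64 controls were dropped. Names came from the deposited locus column or GEO's platform annotation, and symbols from NCBI's table for TAIR10.1. In all 17103 probe sets named 1 gene, 672 several and 4971 none here. The genome build of the files is not stated, so no coordinates are given.

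A model with 8 group means was fitted to all 24 arrays with limma 3.58.1 in R 4.3.3 (statmod 1.5.0 for the random block), with 16 residual degrees of freedom and Benjamini-Hochberg adjustment over 22746 probe sets, and the threshold was 0.05. In a simulation of the 1 h comparison over 22746 probe sets, 71% of log2 changes of 1 and 95% of changes of 2 were recovered. The 200 changed probe sets were drawn at random from all, with independent noise and no experiment effect. Members varied more between experiments than other probe sets, so these shares do not apply to them. The labels give each array an experiment number, 1 to 3, and it was taken to pair the arrays: within a time, deviations from group means correlated with r from 0.2279 to 0.8359 over 12 pairs. The block is the experiment as a fixed term. The number of arrays, 3 in each group, limits the precision.

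The members, the gene lists and the grouping by role were chosen with earlier results of these data known. Among members naming 1 gene, array values or differences are given for the 15 with the highest mean of both differences, members on a pathway list, members called in a contrast of 0 h and 1 h groups (up to 6 a direction), the 3 with the highest and the 3 with the lowest ratio of 24 h to 6 h difference, and those nearest the limits. A gene of a list measured by several probe sets is given by the one with the highest mean level. Other members, unnamed probe sets included, were chosen after their values were seen.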

Additional observations from a re-analysis of the deposited data

Results flagged for a closer look

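For 5 members the difference between supplies was flagged as unlike at 0 h and 1 h, times that the choice of members did not use. Only TCH4 and PHI-1 passed a test of this without the block. For TCH4 it was larger at 1 h by 4.70 (SE 0.617, limma adjusted p = 0.00601) and for PHI-1 by 4.46 (SE 0.76, adjusted p = 0.0187), both from the test of the difference itself. With the block AT2G32190 (adjusted p = 0.017), AT3G19970 (0.0337) and the shared probe set 265670_s_at (0.012) passed that test too. For PGIP1, NYC1 and AIL6 all 3 experiments had one sign at 0 h and the opposite sign at 1 h. They did not pass the test of the difference, so they are given as values. Of all probe sets, 14.4% were higher and 15.9% lower without Pi in all 3 experiments at 0 h, and 19.2% and 22.0% at 1 h. The share with opposite signs at both times was not counted, so nothing is read into these 3. PGIP1 went from -0.16, -0.86 and -0.80 at 0 h to 1.11, 2.67 and 0.82 at 1 h, a shift of 2.14 (adjusted p = 1.0). NYC1 went from 0.38, 0.85 and 0.46 to -0.18, -0.66 and -0.18, a shift of -0.90 (adjusted p = 1.0), before standing at 1.12 and 1.55 at 6 and 24 h. AIL6 went from -0.36, -0.22 and -0.24 to 0.25, 0.41 and 0.62, a shift of 0.70 (adjusted p = 0.638).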

How the results depend on the processing

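Median centring, quantile normalization, dropping dim probe sets or asking for a 2-fold change kept every count of called members within 1.5 times its value, and no named result reversed. Counts rested on the spread and on single experiments. With the replicate block as a fixed term the members called went from 9 to 20 for the supply difference at 1 h, from 8 to 24 for 1 h against 0 h without Pi, from 3 to 12 with Pi, and from 2 to 5 for the difference at 1 h less that at 0 h. As a random term they were 21, 22, 11 and 3. With only the arrays compared they were 5, 0, 0 and 1, and of the 5 at 1 h 2 were among the 9. With the 3 arrays out of run left out they were 4 at 1 h, 5 without Pi and 1 for the difference of differences, and with the second-scan pair left out 4, 1 and 1. Leaving out experiments or single arrays gave 1 to 6, 1 to 9, 1 to 4 and 0 to 2. The lowest count at 1 h, 1, came without experiment 2, where TCH4 alone remained. The block removed no call of a member made without it; the calls it changed stand beside their values. The 0 h count was 0 under all settings run. A mean threshold of 0.6 gave 279 members and one of 1.0 gave 114; leaving out an experiment gave 163 to 323, of which 138 to 153 were among the 172. The members' median ranged from 0.175 to 0.527 at 1 h and from -0.16 to 0.009 at 0 h over experiments left out. Of the single-gene repeats 149 kept their call and 101 lost it, with 0 reversed. The cause was not tested.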
